A study of Mus musculus with 12 samples.

Results

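The comparison set the liver of ApoE null mice beside aortic endothelial cells of ApoE null mice. It holds 4 of the 12 arrays of the series, 2 of liver and 2 of aortic cells, chosen by their titles and with no measured value used. The mice were adult C57BL/6J animals that lacked ApoE in every group of the main comparison. The liver arrays carried RNA of whole liver, which the labels describe as taken from mice fed HFD (high-fat diet) for 12 weeks. The study's own text gives normal chow for the array livers, so the diet is unsettled. The aortic arrays carried RNA of primary endothelial cells that were isolated from the aorta and kept in culture for several days, and no diet is given for their donors. Arrays of mice that lacked both Dscr-1 and ApoE (double null), 2 of liver and 2 of aortic cells, were used to see the same measure on arrays that the main comparison did not use. Each array is 1 sample, and nothing in the labels says whether the 2 of a group came from separate mice or cultures. The p-values therefore measure only the spread between these samples.

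Liver is built mostly of hepatocytes, which make the plasma proteins, coagulation and complement factors and apolipoproteins of the blood, turn cholesterol into bile acids, dispose of nitrogen as urea and release glucose. It also holds sinusoidal endothelial cells, Kupffer cells (the resident macrophages), stellate cells and bile duct cells. The endothelium of the aorta is a single layer of cells joined by cadherin and claudin junctions. It releases nitric oxide, prostacyclin and endothelin, stores von Willebrand factor and P-selectin, and binds leukocytes through adhesion molecules when activated. ETS and SOX family transcription factors hold endothelial identity, as HNF and C/EBP factors hold that of hepatocytes.

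Liver and aortic cells were deposited on different scales, linear signal for liver and log2 for aortic cells, so each array was turned into percentile ranks. A rank of 99 means that the probe set (the group of probes that reads 1 transcript) was brighter than 99% of the 45037 probe sets on the same array. A difference in rank says nothing of fold change. Ranks also leave little room at the top, where a pair of bright genes can differ only by a few points, and below a rank of 50 they mostly order dim signals. A difference of rank is written as liver minus aortic cells in percentile points, with its standard error (SE) and adjusted p from limma, and a gene passed at an adjusted p under 0.05. Rank correlation over the probe sets of an array pair, a description since probe sets are not replicates, was 0.664 between the ApoE null livers, 0.989 between the ApoE null aortic arrays and 0.5235 to 0.6096 between the tissues. ApoE null liver replicate 1 stood apart from the other livers, with a median signal of 44.7 against 32.2 to 37.6 and correlations of 0.658 to 0.670 with the other livers against 0.714 to 0.737 among those. The groups also differed in array run, in the RNA extraction kit (RNeasy for liver, Trizol for aortic cells), in the signal algorithm, in culture and, as far as it is given, in diet. None of these can be told apart from tissue. The labels place the 2 aortic replicates of a genotype in separate array runs and all livers in 1.

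Apoe, which encodes the apolipoprotein that carries remnant lipoproteins to their receptors, was read first as a check of the labels. In livers of wild-type and Dscr-1 null mice it ranked between 99.92 and 99.94. In ApoE null livers it ranked 91.2 and 85.4 and in double null livers 73.9 and 72.8. ApoE null aortic cells placed it at 74.2 and 74.5. All 4 livers labelled as lacking ApoE lay below the other 4, and for aortic cells there is no array with ApoE to set beside them. Between the ApoE null tissues Apoe did not pass (difference 13.97 ± 2.70 points, SE, adjusted p = 0.0503). Rcan1, the gene of Dscr-1 and a feedback inhibitor of calcineurin, ranked 94.3 and 85.4 in liver and 94.1 and 93.9 in aortic cells and did not pass (difference −4.19 ± 3.90 points, SE, adjusted p = 0.468). Its dimmer probe set ranked 47.7 and 6.49 in liver and 66.2 and 64.6 in aortic cells. In the arrays labelled double null the brighter probe set of Rcan1 was at 93.8 and 87.4 in liver and 94.5 and 95.3 in aortic cells, no lower than in ApoE null arrays. No source used here says where it lies relative to the deletion, and the double null comparison therefore rests on the labels.

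Of 12742 genes tested, 2203 were higher in liver (17.3%) and 1521 higher in aortic cells (11.9%) by limma at an adjusted p under 0.05, and 5606 had an unadjusted p under 0.05. The median difference over all tested genes was −2.42 points. In 10139 genes (79.6%) the 2 liver values did not overlap the 2 aortic values, and an exact permutation test of 2 against 2 cannot go below a two-sided p of 0.333. Every call that was measured again kept its direction under each other setting with a test, but the number of calls moved. The median gap between replicates was 5.39 points in liver and 0.773 in aortic cells. A fit without 1 liver takes its spread from the 2 aortic arrays alone. Counts from such fits, here and in the lists below, hold no spread between livers and do not show that a call is firm. Calls over all genes rose in the same fits, so a higher list count there is not by itself a result about the list. Without either aortic array no gene passed (2408 and 2417 genes at an unadjusted p under 0.05). Without ApoE null liver replicate 1 there were 4006 genes higher in liver and 5424 higher in aortic cells, and without replicate 2 there were 4149 and 5752. On quantile-normalized log2 values 2604 and 2880 genes passed, so that 47.5% of calls were higher in liver against 59.2% by rank. A failure to pass therefore does not show that a gene ranked alike in both tissues.

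The 10 genes with the widest gaps on the liver side were plasma proteins, drug and steroid enzymes and a few others. Fga, the alpha chain of fibrinogen, had the largest gap of all, ranking 99.84 and 99.92 in liver and 1.21 and 2.77 in aortic cells (difference 97.9 ± 1.41 points, SE, adjusted p = 0.00456). The others were Mug1, a murinoglobulin of plasma (95.8 points), Ugt2b1 and Ugt2b35, which join glucuronic acid to steroids and drugs (95.6 and 93.97), and the cytochromes P450 Cyp2d10 and Cyp3a25 (94.7 and 93.98). With them stood F13b, the carrier subunit of coagulation factor XIII (94.4), Fabp2, a fatty acid binding protein (94.1), Upp2, a uridine phosphorylase (93.6), and Mup10, a major urinary protein (93.4). All 10 ranked over 97 on both liver arrays and under 8 on both aortic arrays. Mug, Ugt2b, Cyp2d, Cyp3a and Mup genes have near-identical copies, and a probe set may read more than 1 of them. Genes over 75 points numbered 138 on the liver side and 19 on the aortic side.

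On the aortic side the largest gaps belonged to genes of varied roles. Gap43, a membrane protein best known from growing axons, ranked 0.938 and 1.05 in liver and 93.4 and 92.7 in aortic cells (difference −92.1 ± 1.28 points, SE, adjusted p = 0.00456). Lxn (latexin, a carboxypeptidase inhibitor) ranked 11.1 and 8.29 in liver and 97.4 and 96.99 in aortic cells. Ube2c, which tags mitotic cyclins for breakdown, differed by −86.9 points, with liver values of 20.7 and 0.760. The E3 ligase family member Trim47 (−85.2 points), the chloride channel gene Cftr (−80.2) and the syntenin relative Sdcbp2 (−79.8) followed. Next to these stood genes known from endothelium, the ETS factor Erg (−81.6), the forkhead factor Foxc2 (−79.8), the repressor Bcl6b (−79.4) and the prostacyclin synthase Ptgis (−79.03). In the mean ranks of all tested genes the hepatocyte markers lay along the top edge and the endothelial markers along the right edge.

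**Figure D1:**
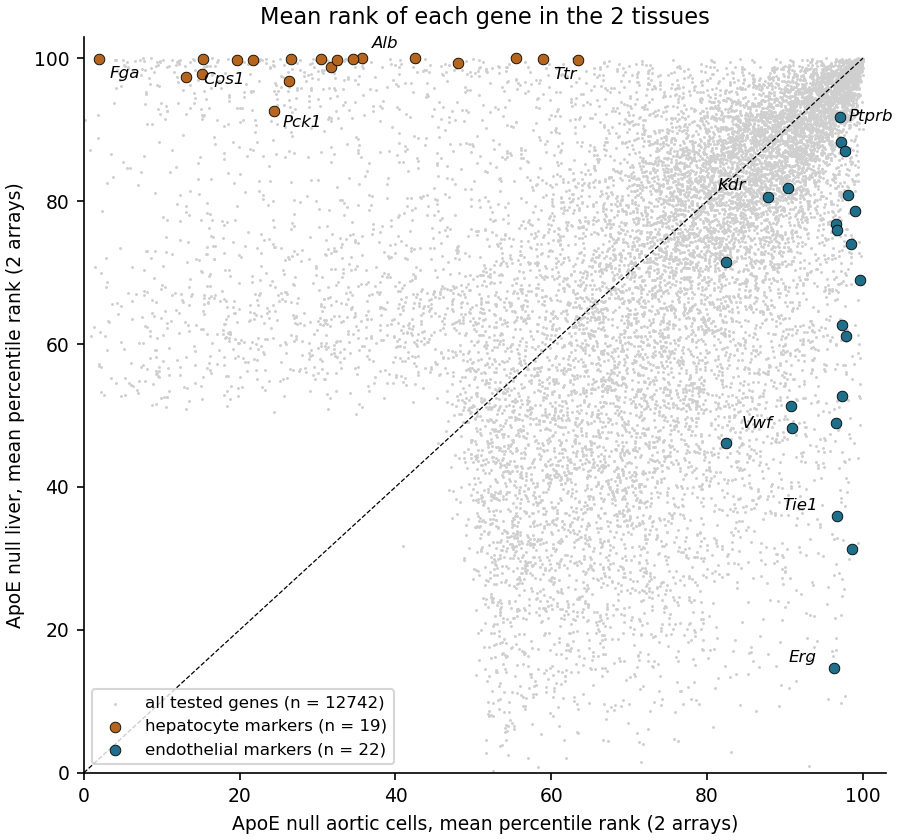
Mean percentile rank of each of 12742 tested genes in ApoE null aortic cells (x axis, 2 arrays) and ApoE null liver (y axis, 2 arrays), with the dashed line of equal rank. All 19 hepatocyte markers (brown) lie over a rank of 90 in liver and under 64 in aortic cells, and 19 of 22 endothelial markers (blue) lie over 90 in aortic cells, and the empty lower left corner comes from the filter on dim probe sets.

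Hepatocyte markers were read beside the liver label, from a list chosen with earlier results of these data known, so they are no independent check of it. All 19 measured members of the list passed as higher in liver, with a median difference of 68.2 points against −2.42 over all tested genes. Alb, which encodes albumin, ranked 99.99 and 99.99 in liver and 37.3 and 34.1 in aortic cells (difference 64.3 ± 1.81 points, SE, adjusted p = 0.00456). Cps1, the enzyme that starts the urea cycle, ranked 99.93 and 99.96 in liver and 20.1 and 10.6 in aortic cells. Asgr1, the receptor that clears desialylated glycoproteins, ranked 97.6 and 98.1 in liver and 15.5 and 14.9 in aortic cells. The livers had every marker over a mean rank of 90, and aortic cells had 16 of the 19 at a mean rank under 50. The 3 over 50 were Apoa1 (55.5 and 55.4 in aortic cells), Ttr, the carrier of thyroxine and retinol (58.8 and 59.1), and Ahsg (fetuin-A, 63.5 and 63.3). The other 3 probe sets of Ttr differed by 88.2 to 97.4 points and those of Apoa1 by 55.1 to 74.5, more than the probe sets read here.

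Genes of plasma carriers and protease inhibitors were all higher in liver. Each of 21 measured members passed, with a median difference of 62.9 points. Orm1 (an acute phase carrier of drugs) ranked 99.4 and 99.60 in liver and 11.1 and 7.66 in aortic cells, and Rbp4, the retinol carrier, ranked 99.91 and 99.85 in liver and 17.4 and 10.6 in aortic cells. Hrg, a histidine-rich plasma glycoprotein, differed by 85.8 points and Serpina6, which binds glucocorticoids, by 84.1. The narrowest gap was that of Cp, the copper-carrying ferroxidase ceruloplasmin, at 99.91 and 99.93 in liver and 83.1 and 85.3 in aortic cells (difference 15.7 ± 1.55 points, SE, adjusted p = 0.0163). Cp was thus a bright gene in cultured aortic cells too. In double null aortic cells it ranked 92.6 and 98.5, and the double null gap of 4.37 points did not pass (adjusted p = 0.326 by limma). Its 7 other probe sets above the filter differed by −1.87 to 48.2 points, so the size and in part the direction of its gap depend on the probe set.

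Coagulation genes were nearly all higher in liver, whereas some anticoagulant and fibrinolytic genes of the endothelial lists ranked high in aortic cells. Of 17 coagulation genes measured, 16 were higher in liver and 1 did not pass, with a median of 65.1 points. F9 and F13b, the genes of factor IX and of a factor XIII subunit, differed by 83.05 and 94.4 points. Fgb, the beta chain of fibrinogen, ranked 99.69 and 99.87 in liver and 26.5 and 12.9 in aortic cells. Fgg, the gamma chain, ranked 99.76 and 99.92 in liver and 31.8 and 29.02 in aortic cells. Plg, the precursor of plasmin, and F2 (prothrombin) differed by 66.4 and 67.2 points. The exception was Pros1 (protein S, the cofactor of activated protein C), which ranked 92.2 and 92.6 in liver and 94.6 and 94.8 in aortic cells (difference −2.26 ± 1.26 points, SE, adjusted p = 0.273). On the endothelial side Thbd (thrombomodulin), Procr (the protein C receptor), Tfpi (tissue factor pathway inhibitor) and Plat (tissue plasminogen activator) ranked 89.2 or above on both aortic arrays. Plat, at 17.7 and 25.6 in liver and 96.2 and 96.7 in aortic cells, and Tfpi, at 76.4 and 75.004 in liver and 89.2 and 90.7 in aortic cells, passed, whereas Thbd, at 58.2 and 31.6 in liver and 95.03 and 95.1 in aortic cells, and Procr, at 75.1 and 29.8 in liver and 99.55 and 99.57 in aortic cells, did not.

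All 15 measured complement genes passed as higher in liver, at a median of 51.4 points. C8a, a chain of the membrane attack complex, ranked 99.60 and 99.70 in liver and 5.36 and 7.89 in aortic cells and C4bp, which restrains C4b, ranked 98.8 and 99.1 in liver and 12.02 and 14.1 in aortic cells. C9, the pore-forming subunit, differed by 74.7 points, Mbl1 and Mbl2, the mannose-binding lectins, by 74.8 and 74.7, and their protease Masp2 by 66.7. Cfi (factor I) stood at 80.8 and 80.1 in aortic cells and differed least, by 19.2.

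Among apolipoproteins and lipoprotein assembly genes, all 13 measured members other than Apoe passed as higher in liver (median 51.9 points). Apof ranked 99.51 and 99.57 in liver and 14.6 and 4.96 in aortic cells and Apoc2, the activator of lipoprotein lipase, ranked 98.6 and 98.8 in liver and 9.40 and 12.05 in aortic cells. Apob, the scaffold of very-low-density lipoprotein, ranked 99.77 and 99.61 in liver and 16.9 and 26.7 in aortic cells (difference 77.9 ± 4.28 points, SE, adjusted p = 0.00709), and Apoc3, an inhibitor of lipase, differed by 73.4 points. Apoa4 and Apom differed by 67.6 and 54.7. Beside these, the gap of 13.97 points for Apoe in mice that lack the gene was smaller than any of the 13, of which the smallest was that of Apoa2 (37.1).

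Bile acid genes were higher in liver in 16 of 17 cases, at a median of 58.4 points. Cyp7a1, which sets the rate of the classic route to bile acids, ranked 97.6 and 97.1 in liver and 9.36 and 16.9 in aortic cells (difference 84.2 ± 3.40 points, SE, adjusted p = 0.00549), and Cyp8b1, which adds the hydroxyl group of cholic acid, differed by 73.8. The importers Slc10a1 and Slco1b2 differed by 82.3 and 77.2 points, Akr1d1, a steroid reductase, by 72.9, and Abcg5, which exports sterols into bile, by 72.1. Hsd3b7, a dehydrogenase of the same pathway, was bright in both tissues at 98.8 and 99.2 in liver and 94.8 and 94.8 in aortic cells and did not pass (difference 4.24 ± 1.26 points, SE, adjusted p = 0.105).

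Urea cycle and amino acid breakdown genes passed in all 16 measured cases (median 66.9 points). Bhmt, which remethylates homocysteine, ranked 99.94 and 99.91 in liver and 20.1 and 18.3 in aortic cells. Arg1, the arginase of the cycle, differed by 73.03 points and Otc, which makes citrulline, by 70.1. Hpd and Hal, which break down tyrosine and histidine, differed by 76.5 and 71.7. All 6 genes of gluconeogenesis and glucose release passed too, with a median of 46.8. G6pc, the glucose-releasing phosphatase, ranked 96.9 and 96.8 in liver and 25.1 and 27.5 in aortic cells, Pck1, which feeds carbon into gluconeogenesis, 90.1 and 95.2 in liver and 25.5 and 23.4 in aortic cells, and Fbp1, the fructose bisphosphatase, 99.2 and 99.69 in liver and 4.47 and 25.3 in aortic cells. Ppargc1a, a coactivator of this program, had the smallest gap (17.4 points), and its 3 other probe sets differed by −15.3 to 55.3.

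Of 16 measured xenobiotic genes, 12 were higher in liver and 4 did not pass, with a median of 54.6 points. Cytochromes P450 gave the wide gaps, with Cyp3a11 at 99.97 and 99.95 in liver and 6.01 and 11.3 in aortic cells, Cyp2f2 at 99.5 and 99.76 in liver and 9.61 and 14.5 in aortic cells and Cyp1a2 at 99.63 and 99.56 in liver and 32.3 and 30.5 in aortic cells. Aox3, an aldehyde oxidase, differed by 82.8. The 4 that did not pass were bright in both tissues. Gstp1, a glutathione transferase, ranked 99.92 and 99.93 in liver and 99.1 and 99.1 in aortic cells and Ephx1, an epoxide hydrolase, ranked 97.9 and 97.9 in liver and 97.4 and 97.1 in aortic cells. Adh1, an alcohol dehydrogenase, stood at 99.85 and 99.88 in liver and 93.8 and 93.1 in aortic cells (difference 6.44 ± 1.29 points, SE, adjusted p = 0.0532) and Nnmt, which methylates nicotinamide, at 96.6 and 97.5 in liver and 91.96 and 90.99 in aortic cells (difference 5.59 ± 1.36 points, SE, adjusted p = 0.0749).

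Fatty acid oxidation genes passed in 13 of 15 cases, but at a median of 11.3 points, and the median member ranked 86.4 and 85.2 in aortic cells. In the fit with no filter 6 of the 15 passed. The wide gaps belonged to peroxisomal, microsomal and ketone body genes and their regulator. Cyp4a14, a fatty acid hydroxylase, ranked 90.4 and 94.04 in liver and 7.89 and 11.6 in aortic cells, and Acaa1b, a peroxisomal thiolase, 99.93 and 99.89 in liver and 31.1 and 27.6 in aortic cells. Ppara, the nuclear receptor that controls the pathway, differed by 57.4, Ehhadh, a peroxisomal enzyme, by 54.7 and Bdh1, which makes hydroxybutyrate, by 50.8. The 2 that did not pass encode mitochondrial enzymes, but so do Bdh1 and Acaa2, which passed as higher in liver. Acadl, the long-chain dehydrogenase, ranked 97.3 and 97.3 in liver and 96.1 and 95.9 in aortic cells. Hadhb, a subunit of the trifunctional protein, ranked 97.7 and 98.5 in liver and 94.3 and 93.7 in aortic cells.

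Isozymes of glucose, glycogen and methionine metabolism differed in both directions. All 6 measured liver-type isozymes were higher in liver. Slc2a2, the low-affinity glucose transporter, ranked 98.99 and 98.9 in liver and 6.05 and 15.9 in aortic cells (difference 87.97 ± 4.29 points, SE, adjusted p = 0.00628). Mat1a, which makes S-adenosylmethionine, ranked 99.4 and 99.5 in liver and 14.4 and 9.56 in aortic cells. Gys2, the liver form of glycogen synthase, ranked 96.8 and 96.8 in liver and 11.2 and 23.4 in aortic cells. Pygl, the liver phosphorylase, ranked 99.1 and 98.8 in liver and 29.4 and 19.3 in aortic cells. Pklr, the pyruvate kinase of liver and red cells, ranked 97.996 and 94.9 in liver and 41.9 and 38.2 in aortic cells, with its 2 other probe sets at −7.03 and 39.3 points, and Khk (ketohexokinase) differed by 28.6.

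Of 7 measured isozymes of other tissues, 4 were higher in aortic cells, and all 7 had a lower mean rank in liver. Gys1, the muscle-type glycogen synthase, ranked 4.72 and 26.7 in liver and 76.4 and 76.2 in aortic cells (difference −60.6 ± 9.22 points, SE, adjusted p = 0.0331), and Pygb, the brain-type phosphorylase, ranked 40.7 and 57.5 in liver and 86.8 and 87.2 in aortic cells. Pkm, the pyruvate kinase of most tissues, differed by −22.4 points and Hk1, a hexokinase, by −19.8. The remaining 3 did not pass, Hk2 with liver values of 30.8 and 71.1 below aortic values of 80.0 and 79.7, Slc2a1, the widespread glucose transporter, at 88.1 and 77.2 in liver and 95.01 and 95.6 in aortic cells, and Aldoa, a widespread aldolase, at 95.4 and 94.6 in liver and 99.5 and 99.4 in aortic cells. Of 7 tested genes from the rest of glycolysis, only Pfkp, the platelet-type phosphofructokinase, passed (−26.9 points), and the list median was −0.619.

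**Figure D2:**
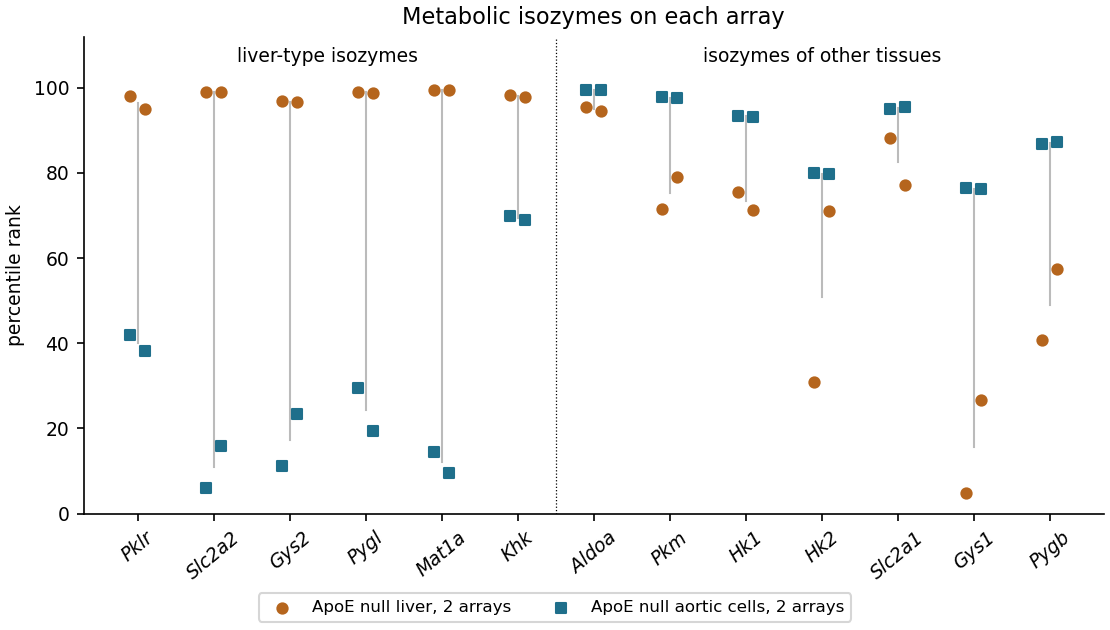
Percentile rank (y axis) of 6 liver-type isozymes and 7 isozymes of other tissues on the 2 ApoE null liver arrays (circles) and the 2 ApoE null aortic arrays (squares), with a line between the group means. Liver circles lie above the squares for each liver-type gene and below them for each gene on the right, with Hk2 and Gys1 showing the widest spread between the livers.

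Transcription factors of hepatocytes passed as higher in liver in 13 of 15 cases (median 50.3 points). Onecut2, a cut-homeodomain factor, ranked 92.2 and 91.6 in liver and 6.38 and 24.2 in aortic cells. The forkhead factor Foxa3 ranked 94.8 and 96.9 in liver and 25.1 and 29.7 in aortic cells. Its relative Foxa1 ranked 96.6 and 90.4 in liver and 26.99 and 24.4 in aortic cells. Nuclear receptors followed, with Nr1h4, the bile acid receptor, at 66.7 points, Nr1i3, a xenobiotic receptor, at 60.2, and Nr0b2, the repressor of bile acid synthesis, at 57.1. Hnf4a ranked 99.3 and 99.3 in liver and 46.9 and 49.2 in aortic cells (difference 51.2 ± 1.56 points, SE, adjusted p = 0.00456), and its 3 other probe sets differed by −18.1 to 87.8. Onecut1 (difference 35.1 ± 7.95 points, SE, adjusted p = 0.0663) and Prox1, which also marks lymphatic endothelium, at 72.2 and 81.5 in liver and 68.6 and 67.2 in aortic cells, did not pass.

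Promoters of the genes that moved together were searched for 4 short motifs on both strands. The windows run from 250 bases before to 50 bases after the start of the gene in RefSeq (GRCm38.p6). Genes of 11 hepatocyte lists that were higher in liver numbered 135, of which 109 had a window. The HNF1 motif GTTAATNAT was present in 9 of them (8.26%) against 0.94% of all 27025 genes with a window. These were Alb, Fga, F13b, C4bp, Hc, Cp, Slco1b2, G6pc and Nr5a2. The HNF4 motif CAAAGTCCA was present in 2 (1.83% against 0.56%), Cyp3a11 and Cyp8b1, and the C/EBP motif TTGCGCAA in none (0.21% of all). Genes of 6 endothelial lists that were higher in aortic cells numbered 34, of which 23 had a window. The ERG and ETS motif ACAGGAAG was present in 3 of them (13.04% against 4.06%), Sele, Emcn and Calcrl, and the other 3 motifs in none. One of the 109 hepatocyte genes, Ambp, held the ETS motif (0.92%). The shares are a description of these letters in these windows, and a match is not a bound site. One window is shown for each motif found, that of the gene with the widest rank gap, 5′ to 3′ on the strand of the gene, with the motif or its reverse complement in capitals. The Fga window lies at chr3:83025903-83026202 on the plus strand, that of Cyp3a11 at chr5:145879805-145880104 on the minus strand and that of Sele at chr1:164047984-164048283 on the plus strand. The motifs begin 46, 109 and 67 bases before the start site.
Fga: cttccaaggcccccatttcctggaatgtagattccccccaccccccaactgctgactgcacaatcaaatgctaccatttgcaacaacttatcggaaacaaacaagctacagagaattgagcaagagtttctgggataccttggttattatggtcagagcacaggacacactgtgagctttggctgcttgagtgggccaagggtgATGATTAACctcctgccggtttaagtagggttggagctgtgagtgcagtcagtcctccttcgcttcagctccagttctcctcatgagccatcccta
Cyp3a11: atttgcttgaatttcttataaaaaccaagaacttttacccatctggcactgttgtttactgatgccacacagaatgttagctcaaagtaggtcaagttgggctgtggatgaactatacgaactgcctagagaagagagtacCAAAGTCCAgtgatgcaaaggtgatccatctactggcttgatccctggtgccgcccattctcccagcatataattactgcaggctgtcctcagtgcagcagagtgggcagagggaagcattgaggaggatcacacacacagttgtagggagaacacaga
Sele: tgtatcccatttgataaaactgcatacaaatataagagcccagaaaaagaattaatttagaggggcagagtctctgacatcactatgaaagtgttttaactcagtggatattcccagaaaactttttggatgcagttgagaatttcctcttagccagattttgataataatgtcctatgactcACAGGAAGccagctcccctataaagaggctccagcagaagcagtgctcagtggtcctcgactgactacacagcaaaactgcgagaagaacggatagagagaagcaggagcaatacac

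Endothelial markers were read beside the aortic label, again from a list chosen with earlier results of these data known. All 22 had a lower mean rank in liver, 11 passed as higher in aortic cells and 11 did not pass, with a median of −27.5 points. In aortic cells the list had a median rank of 96.9, with 19 of 22 over 90 and none under 50. Erg ranked 27.1 and 2.29 in liver and 96.02 and 96.6 in aortic cells and Tie1, an endothelial receptor kinase, ranked 34.9 and 36.9 in liver and 96.6 and 96.7 in aortic cells (difference −60.8 ± 1.51 points, SE, adjusted p = 0.00456). Vwf (von Willebrand factor) ranked 44.4 and 52.1 in liver and 91.2 and 90.6 in aortic cells, Emcn (endomucin) 74.6 and 63.3 in liver and 99.57 and 99.56 in aortic cells and Cldn5, the tight junction claudin, 74.9 and 76.99 in liver and 96.8 and 96.6 in aortic cells. Several defining markers did not pass, among them genes whose livers lay far apart. Pecam1, the adhesion molecule CD31, ranked 29.8 and 67.96 in liver and 96.4 and 96.8 in aortic cells (difference −47.7 ± 15.9 points, SE, adjusted p = 0.128), and Cdh5 (VE-cadherin) ranked 85.8 and 71.6 in liver and 98.97 and 98.9 in aortic cells (difference −20.3 ± 6.05 points, SE, adjusted p = 0.106). Fits without 1 liver cannot tell how firm these results are, since they hold no spread between livers. Among settings that kept both livers, the count higher in aortic cells was 7 of 22 with no filter and 11 with all 12 arrays. It was 16 with trend and robust variance and 20 on quantile-normalized log2 values. Over all genes these settings gave 1137 of 18193, then 1604, 2405 and 2880 of 12742. By limma on normal scores Pecam1 (adjusted p = 0.0439) and Cdh5 (adjusted p = 0.0207) passed. Liver itself ranked several of these genes high, with Ptprb, an endothelial phosphatase, at 92.6 and 91.01. In whole tissue, fewer cells of a type and less RNA per cell cannot be told apart.

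Arterial genes followed the same direction. All 14 had a lower mean rank in liver and 7 passed, with a median of −35.0 points. The count was 12 without ApoE null liver replicate 1 and 13 without replicate 2. Bmx, a kinase of arterial endothelium, ranked 21.6 and 23.04 in liver and 92.6 and 92.7 in aortic cells (difference −70.3 ± 1.38 points, SE, adjusted p = 0.00456) and Notch4 ranked 34.8 and 25.6 in liver and 89.6 and 89.9 in aortic cells. Efnb2, the arterial ephrin, ranked 59.9 and 66.98 in liver and 97.2 and 96.9 in aortic cells and Sox17 54.9 and 63.3 in liver and 94.002 and 94.5 in aortic cells. Gja5 and Hey1, a connexin and a Notch target of arteries, passed at modest aortic ranks, 57.8 and 51.6 for the first and 64.2 and 64.7 for the second. Dll4, the arterial Notch ligand, ranked 30.5 and 72.5 in liver and 76.9 and 80.4 in aortic cells, which did not pass. The vein-associated Ephb4 and Nr2f2 also stood high in aortic cells, at 90.6 and 90.4 for the first and 95.4 and 95.1 for the second, and did not pass.

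Of 18 tested endothelial transcription factors, 6 were higher in aortic cells, 1 was higher in liver and 11 did not pass (median −35.1 points over all 19 measured). Leaving out ApoE null liver replicate 1 or 2 gave 14 and 15 higher in aortic cells. Foxc2 ranked 3.78 and 15.01 in liver and 89.6 and 88.8 in aortic cells, Gata2 35.7 and 51.4 in liver and 91.999 and 92.04 in aortic cells and Tal1, better known from blood stem cells, 42.9 and 51.7 in liver and 91.4 and 91.3 in aortic cells. Klf4, a flow-responsive factor, ranked 56.1 and 61.9 in liver and 91.3 and 92.2 in aortic cells. Foxf1, a forkhead factor of mesenchyme and of some endothelium, was the one higher in liver (76.3 and 73.1 in liver and 52.1 and 51.4 in aortic cells). Sox7, Sox18 and Lyl1 did not pass, each with aortic values over 87 and liver values from 32.4 to 66.9.

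All 21 endothelial receptors had a lower mean rank in liver and 6 passed (median −20.0 points), among them Calcrl, the adrenomedullin receptor, at 68.9 and 60.3 in liver and 93.9 and 94.6 in aortic cells, Acvrl1, a BMP receptor, at −25.1 points, Nrp2, a semaphorin coreceptor, at −19.97 and Eng (endoglin) at −8.90. Of the receptors 19 were higher in aortic cells without ApoE null liver replicate 1 and 16 without replicate 2. Of 19 junction and adhesion genes 5 were higher in aortic cells, 1 in liver and 13 did not pass (median −20.8). Without either liver in turn 16 were higher in aortic cells. Selp (P-selectin) ranked 34.2 and 42.7 in liver and 97.1 and 97.3 in aortic cells and Sele (E-selectin) 29.3 and 38.8 in liver and 85.3 and 84.5 in aortic cells. Icam1, a ligand of leukocyte integrins, ranked 78.4 and 72.04 in liver and 98.4 and 98.4 in aortic cells (difference −23.2 ± 2.93 points, SE, adjusted p = 0.0242). Vcam1, the ligand of integrin VLA-4, ranked 92.5 and 89.5 in liver and 99.3 and 99.3 in aortic cells and did not pass (difference −8.25 ± 1.76 points, SE, adjusted p = 0.0594). Its 2 other probe sets differed by −63.2 and −40.2 points. Itga5, the fibronectin receptor chain, was called higher in liver by 14.2 points, and its 3 other probe sets differed by −52.9 to −2.71, so its direction depends on the probe set.

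Vasoactive, caveolar and fibrinolytic genes were higher in aortic cells in 9 of 13 cases, and 4 did not pass (median −25.3 points). Ptgis ranked 17.4 and 16.5 in liver and 96.1 and 95.96 in aortic cells and Nos3, the endothelial nitric oxide synthase, 74.7 and 78.9 in liver and 96.6 and 96.6 in aortic cells (difference −19.8 ± 2.12 points, SE, adjusted p = 0.0185). Cav1, the coat protein of caveolae, ranked 72.4 and 76.02 in liver and 99.58 and 99.53 in aortic cells and Cavin1, its partner, 73.9 and 78.4 in liver and 97.9 and 97.95 in aortic cells. Ddah2, which degrades an inhibitor of nitric oxide synthase, differed by −27.7 points. Edn1 (endothelin) ranked 65.5 and 29.3 in liver and 98.3 and 98.05 in aortic cells and did not pass. Ptgs2 (cyclooxygenase 2), at 64.4 and 21.01 in liver and 96.6 and 97.1 in aortic cells, did not pass either. Ace, the angiotensin converting enzyme, did not follow them, at 72.9 and 78.8 in liver and 69.8 and 71.98 in aortic cells.

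Most matrix and basement membrane genes, 21 of 29, had a lower mean rank in liver. Of 28 tested, 11 were higher in aortic cells, 3 in liver and 14 did not pass (median −18.2 points over 29). With either liver left out 20 were higher in aortic cells, and 5 or 4 in liver. In the fit with no filter 6 and 2 passed. Col8a1, a short-chain collagen of vessel walls, ranked 37.1 and 17.2 in liver and 97.6 and 97.1 in aortic cells, and the laminin chains Lamb2, Lama4 and Lama5 differed by −55.9, −48.9 and −48.1 points. The 3 higher in liver were the interstitial collagen Col3a1 (97.3 and 97.8 in liver and 73.95 and 73.4 in aortic cells) and the collagen VI chains Col6a1 and Col6a3 (24.3 and 22.1). These 3 of 28 are a smaller share than the 17.3% of all genes called higher in liver. Double null arrays gave 0 matrix genes higher in liver and 9 higher in aortic cells. Fbln2, Lox and Col5a2 did not pass, each with aortic values over 90 and liver values from 7.11 to 79.6.

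Of 16 actin cytoskeleton genes 2 passed, a share near the 11.9% of all genes, both higher in aortic cells, Vim (vimentin) at 89.6 and 90.5 in liver and 99.97 and 99.97 in aortic cells and Tagln2 (transgelin 2) at 78.2 and 83.4 in liver and 98.3 and 98.2 in aortic cells, whose 2 other probe sets differed by −39.4 and 52.5 points. That share depended on the setting. The actin list gave 0 genes higher in aortic cells with no filter and 7 with all 12 arrays. It gave 9 with trend and robust variance and 11 on quantile-normalized log2 values. Over all genes these settings gave 1137 of 18193, then 1604, 2405 and 2880 of 12742. Double null arrays gave 5 actin genes higher in aortic cells. Among 10 targets of YAP and SRF, 5 were higher in aortic cells (median −28.9), among them Ankrd1 at 40.2 and 41.1 in liver and 91.8 and 91.5 in aortic cells and Ccn2 (connective tissue growth factor) at 70.4 and 68.1 in liver and 99.57 and 99.57 in aortic cells. Of these targets 9 were higher in aortic cells without ApoE null liver replicate 1 and 8 without replicate 2. Of 25 tested cell cycle genes 9 were higher in aortic cells, 1 in liver and 15 did not pass (median −30.9 over 26). Ube2c had the widest gap. Bub1, a checkpoint kinase, ranked 21.6 and 12.2 in liver and 86.9 and 84.4 in aortic cells. Plk1, a mitotic kinase, ranked 9.12 and 25.6 in liver and 81.5 and 80.3 in aortic cells. The cyclin Ccnb2 ranked 31.3 and 29.6 in liver and 92.96 and 92.5 in aortic cells. Top2a, Cdk1 and Bub1b had aortic values over 76 and liver values from 12.1 to 67.6 and did not pass. Ccne1, the gene of cyclin E1, was the one higher in liver (10.5 points), and its other probe set differed by −4.14.

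**Figure D3:**
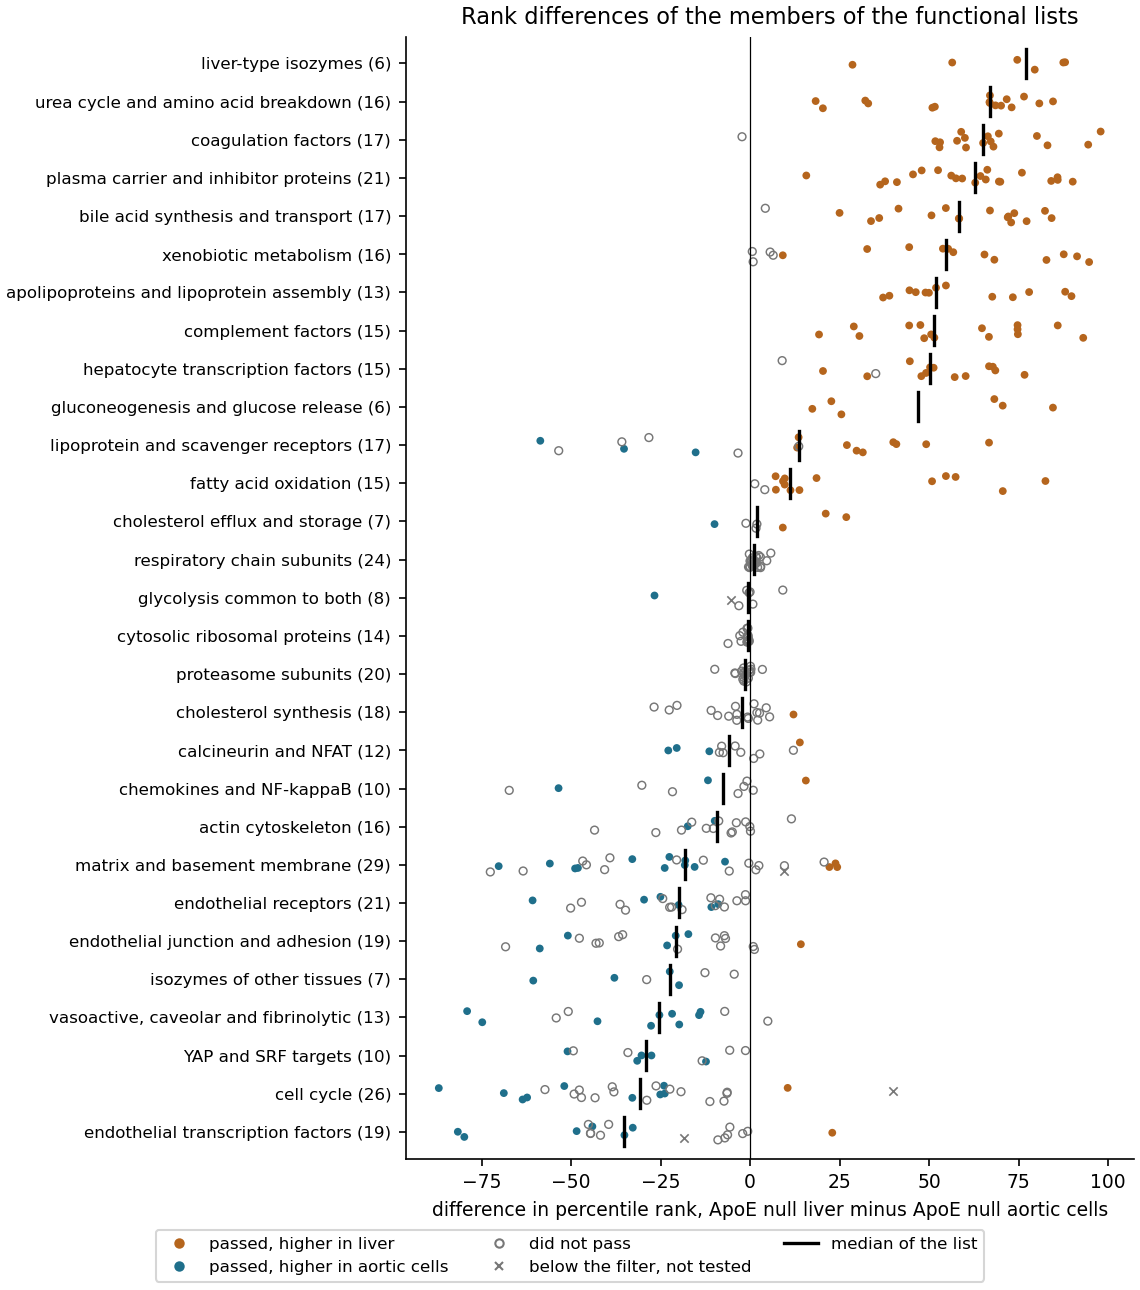
Difference in percentile rank (x axis, ApoE null liver minus ApoE null aortic cells) of every measured member of the 29 functional lists, with the number of members in parentheses and a black bar at the median. Lists of hepatocyte functions lie at medians of 46.8 to 77.0 with the exception of fatty acid oxidation at 11.3, lists of endothelial genes at −35.1 to −19.97, and respiratory chain, ribosomal and proteasome genes close to 0.

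Sinusoidal endothelial genes divided within 1 list. Of 12 tested, 7 were higher in liver, 1 in aortic cells and 4 did not pass, with a median of 12.9 points over 13. In double null arrays 5 were higher in liver and 0 in aortic cells. The mannose receptor Mrc1 ranked 93.9 and 92.1 in liver and 24.6 and 14.8 in aortic cells. The lectin Clec4g ranked 92.1 and 94.3 in liver and 41.2 and 39.3 in aortic cells, and Clec1b, another lectin, 95.9 and 91.9 in liver and 46.9 and 48.9 in aortic cells. Stab2, a hyaluronan scavenger receptor, ranked 81.3 and 84.8 in liver and 54.4 and 52.2 in aortic cells, and Dnase1l3, a secreted nuclease, 78.5 and 82.9 in liver and 33.7 and 23.5 in aortic cells. Stab1, a relative of Stab2, was the one higher in aortic cells (84.7 and 79.4 in liver and 97.2 and 97.4 in aortic cells, difference −15.2 ± 2.52 points, SE, adjusted p = 0.0384). Lyve1, which also marks lymphatic endothelium, ranked 77.99 and 83.4 in liver and 90.6 and 91.2 in aortic cells and did not pass. Flt4, a lymphatic VEGF receptor, ranked 60.6 and 83.8 in liver and 91.3 and 91.1 in aortic cells and did not pass either.

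Most genes of macrophages and Kupffer cells stood higher in liver. Of 13 tested, 11 were higher in liver and 2 did not pass, with a median of 49.2 points over 15. C1qa, a chain of complement C1q made by macrophages, ranked 96.01 and 95.2 in liver and 10.4 and 15.1 in aortic cells, and Ptprc, the leukocyte antigen CD45, ranked 93.8 and 87.9 in liver and 8.69 and 7.63 in aortic cells. Cd5l, an apoptosis inhibitor secreted by macrophages, ranked 99.5 and 98.9 in liver and 28.4 and 29.6 in aortic cells. Csf1r, the receptor of the macrophage growth factor, ranked 99.04 and 98.3 in liver and 60.4 and 60.9 in aortic cells. Vsig4, a receptor of Kupffer cells, differed by 78.2 points. In aortic cells 10 of the 15 had a mean rank under 50 and none was over 90. Cd68 and Cd14 had the highest aortic values, 72.9 and 71.5 for the first and 70.9 and 72.7 for the second, and did not pass.

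Markers of other cells that an aortic preparation could hold were mixed. Of 12 smooth muscle genes 7 could be tested, 2 of which were higher in liver and 1 in aortic cells. Double null arrays gave 0 higher in liver and 4 in aortic cells. The median over the 12 was −15.0 points there, against 5.97 in ApoE null arrays. Acta2 (smooth muscle actin) ranked 56.8 and 81.4 in liver and 96.4 and 96.3 in aortic cells and Tagln (SM22) ranked 49.8 and 72.6 in liver and 91.3 and 90.6 in aortic cells, and neither passed. Smtn (smoothelin) passed at 29.95 and 25.6 in liver and 82.3 and 83.1 in aortic cells. Myh11, the myosin that defines mature smooth muscle, ranked 34.2 and 40.01 in aortic cells and 7.69 and 4.03 in liver, and Cnn1 (calponin) ranked 26.5 and 29.6 in aortic cells, so both lay under a rank of 50 there. The summed rank of the 12 genes was 642 and 651 on the aortic arrays and 665 and 589 on the livers. Myocd, the smooth muscle coactivator, was called higher in liver (60.8 and 66.03 in liver and 26.7 and 22.9 in aortic cells), while in double null arrays its difference was −14.7 and passed the other way.

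Of 11 tested fibroblast genes 4 were higher in liver and none in aortic cells. Dcn (decorin) ranked 97.5 and 98.2 in liver and 99.002 and 98.96 in aortic cells, and Lum (lumican) ranked 76.3 and 91.8 in liver and 78.4 and 78.7 in aortic cells, neither of which passed. Col1a1 was lower in the order, at 49.6 and 48.3 in aortic cells, with 4 of the 12 genes under 50 there. Of 5 tested pericyte genes 3 were higher in liver. Rgs5, a regulator of G protein signalling, ranked 91.9 and 93.95 in liver and 32.1 and 22.2 in aortic cells, and Abcc9, a channel subunit, 93.8 and 94.01 in liver and 34.4 and 32.6 in aortic cells. Pdgfrb, the receptor that recruits pericytes, stood at 75.9 and 78.6 in aortic cells. The part of smooth muscle or fibroblast RNA in the aortic results was not tested. Of 3 tested stellate cell genes 2 were higher in liver. Lrat, which esterifies retinol, ranked 90.6 and 83.8 in liver and 13.6 and 9.09 in aortic cells, and Reln (reelin) ranked 96.4 and 96.95 in liver and 56.2 and 52.4 in aortic cells. Bile duct genes gave 1 call for liver (Sox9, 11.1 points) and 2 for aortic cells, Cftr (−80.2) and the keratin gene Krt19 (−45.3). Lymphocyte genes were mostly dim, with 1 of 3 tested higher in liver (Ms4a1, the B cell antigen CD20, 53.4 and 54.9 in liver and 18.4 and 19.3 in aortic cells), and so were adipocyte genes, with 1 of 2 tested higher in aortic cells (Retn, 14.1 and 29.3 in liver and 57.6 and 61.6 in aortic cells). Alas2, the heme enzyme of red cell precursors, was the 1 erythroid gene tested and ranked 94.5 and 94.8 in liver and 30.7 and 34.2 in aortic cells. None of the 4 mesothelial genes passed the filter on dim values.

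**Figure D4:**
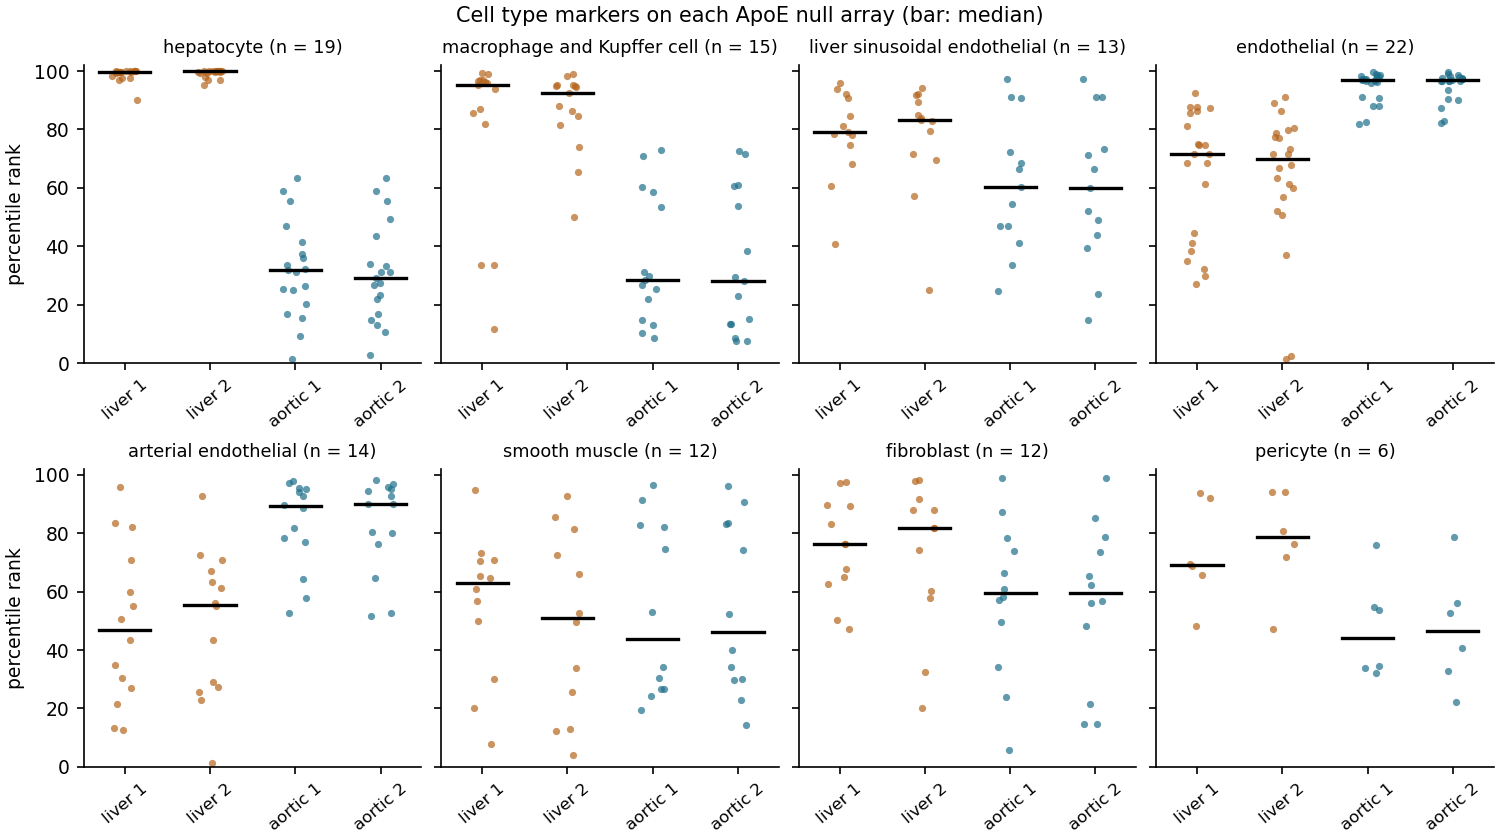
Percentile rank (y axis) of each measured marker of 8 cell types on the 2 ApoE null liver arrays (brown) and the 2 ApoE null aortic arrays (blue), with a black bar at each median. Hepatocyte medians are 99.76 and 99.87 in liver and 31.8 and 29.0 in aortic cells, endothelial medians 71.5 and 69.8 against 96.96 and 96.85, and smooth muscle medians 62.8 and 51.1 against 43.7 and 46.2.

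Lipoprotein and scavenger receptors went both ways. Of 17 tested, 9 were higher in liver, 3 in aortic cells and 5 did not pass (median 13.5 points). In double null arrays 9 were higher in liver and 3 in aortic cells. Cd36, a receptor for fatty acids and oxidized lipoprotein, ranked 85.4 and 80.7 in liver and 15.6 and 17.1 in aortic cells (difference 66.7 ± 2.42 points, SE, adjusted p = 0.00517), and its 2 other probe sets differed by 55.5 and 82.5. Lpl, the lipoprotein lipase, ranked 98.1 and 98.2 in liver and 57.4 and 57.2 in aortic cells. Lrp1, a remnant receptor, ranked 96.4 and 96.9 in liver and 58.4 and 54.9 in aortic cells, and Lsr, another such receptor, differed by 31.5 points. Msr1, the macrophage scavenger receptor, was called higher in liver at 83.7 and 86.2 in liver and 71.4 and 71.5 in aortic cells (difference 13.5 ± 1.64 points, SE, adjusted p = 0.0225), but its 2 other probe sets differed by −58.9 and −8.03, so its direction depends on the probe set. Higher in aortic cells were Scarf1, a scavenger receptor of endothelium, at 39.6 and 15.01 in liver and 86.2 and 85.6 in aortic cells, and Cxcl16, a chemokine that also binds oxidized lipoprotein, at 65.8 and 55.3 in liver and 95.9 and 95.6 in aortic cells.

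Of 18 tested cholesterol synthesis genes, Dhcr7, which makes the last step to cholesterol, was the only one to pass (90.9 and 91.5 in liver and 79.1 and 79.5 in aortic cells), and the list median was −2.21 points, near that of all genes. In double null arrays 1 was higher in liver and 3 in aortic cells. Srebf2, the transcription factor that controls the pathway, ranked 80.4 and 82.5 in liver and 79.1 and 79.96 in aortic cells (difference 1.90 ± 1.58 points, SE, adjusted p = 0.422). Mvk, Pmvk and Sqle, 3 of its enzymes, had liver values from 30.7 to 85.4 and aortic values from 76.0 to 92.5 and did not pass. Of 7 efflux and storage genes, Nr1h3 (the oxysterol receptor LXR-alpha), Abcg1 (a cholesterol exporter) and Npc1 (the lysosomal cholesterol exporter) were higher in liver by 26.9, 21.1 and 9.13 points, Mylip, which degrades the LDL receptor, was higher in aortic cells (−9.94), and 3 did not pass.

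Of 12 genes of the calcineurin and NFAT pathway, which Dscr-1 restrains, 3 were higher in aortic cells, 1 was higher in liver and 8 did not pass (median −5.87 points). Over all 12742 tested genes 3724 were called in either direction, a share near that of this list and of the chemokine list below. Nfatc1 ranked 66.3 and 63.5 in liver and 87.6 and 87.9 in aortic cells (difference −22.9 ± 1.70 points, SE, adjusted p = 0.0107), Rcan3, a relative of Dscr-1, 60.5 and 65.8 in liver and 83.7 and 83.7 in aortic cells and Cabin1, a calcineurin inhibitor, 60.1 and 60.5 in liver and 71.2 and 72.2 in aortic cells. Nfatc2 was the one higher in liver (74.998 and 76.9 in liver and 60.2 and 63.9 in aortic cells), and in double null arrays its difference was −35.5 and did not pass. Of 10 chemokine and NF-kappaB genes, Ccl7 ranked 39.7 and 32.3 in liver and 89.3 and 89.7 in aortic cells and the feedback inhibitor Tnfaip3 75.6 and 77.1 in liver and 88.5 and 87.8 in aortic cells, both higher in aortic cells, and the neutrophil chemokine Cxcl1 94.4 and 96.7 in liver and 80.1 and 79.9 in aortic cells, higher in liver. Ccl2, the chief monocyte chemokine, ranked 53.4 and 10.8 in liver and 99.4 and 99.3 in aortic cells and did not pass (difference −67.3 ± 17.8 points, SE, adjusted p = 0.0866).

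None of 14 cytosolic ribosomal protein genes, 24 respiratory chain subunits or 20 proteasome subunits, genes that every cell uses, passed, with medians of −0.692, 1.17 and −1.41 points. Other settings did call some of them. Ranks with trend and robust variance gave 6 ribosomal, 14 respiratory chain and 7 proteasome genes, and quantile-normalized log2 values gave 11, 5 and 5. The counts were 0, 4 and 4 without ApoE null liver replicate 1, and without replicate 2 they were 3, 3 and 4. The 8 genes with the highest rank on their dimmest array were Tpt1, Eef1a1, Rpl38, Rps29, Selenop, B2m, Clu and Tmsb4x, all at or over 99.65 on the 4 arrays. Selenop, the selenium carrier of plasma, ranked 99.97 and 99.97 in liver and 99.78 and 99.85 in aortic cells, and Clu (clusterin, or apolipoprotein J) ranked 99.83 and 99.89 in liver and 99.69 and 99.67 in aortic cells. Both are secreted proteins of plasma, and their aortic values stood beside those of translation factors.

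Double null arrays, which share no sample with the main comparison, gave 1608 genes higher in liver (12.6%) and 1570 higher in aortic cells (12.3%) among the same 12742. Of the genes called higher in liver in ApoE null mice 1348 were called again, which is 61.2% of those and 83.8% of the double null calls. On the aortic side 572 were called again (37.6% and 36.4%), and 14 genes were called in opposite directions. The sign of the difference was the same in 2069 of 2203 and 1483 of 1521 genes. Among listed genes that passed in ApoE null mice, 193 of 198 higher in liver and 78 of 79 higher in aortic cells kept their sign. The exceptions were Myocd, Sox9, Ppargc1a, Itga5 and Nfatc2 on the liver side and Hey1 on the aortic side. Alb differed by 60.3 points and Fga by 95.3 in double null mice, and Erg by −79.4 and Tie1 by −38.01. Wider shifts were seen for Cyp4a14, from 82.5 to 36.95 points, Ptgis, from −79.03 to −30.1, and Bmx, from −70.3 to −25.7, and for none of the 3 did the interaction pass.

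**Figure D5:**
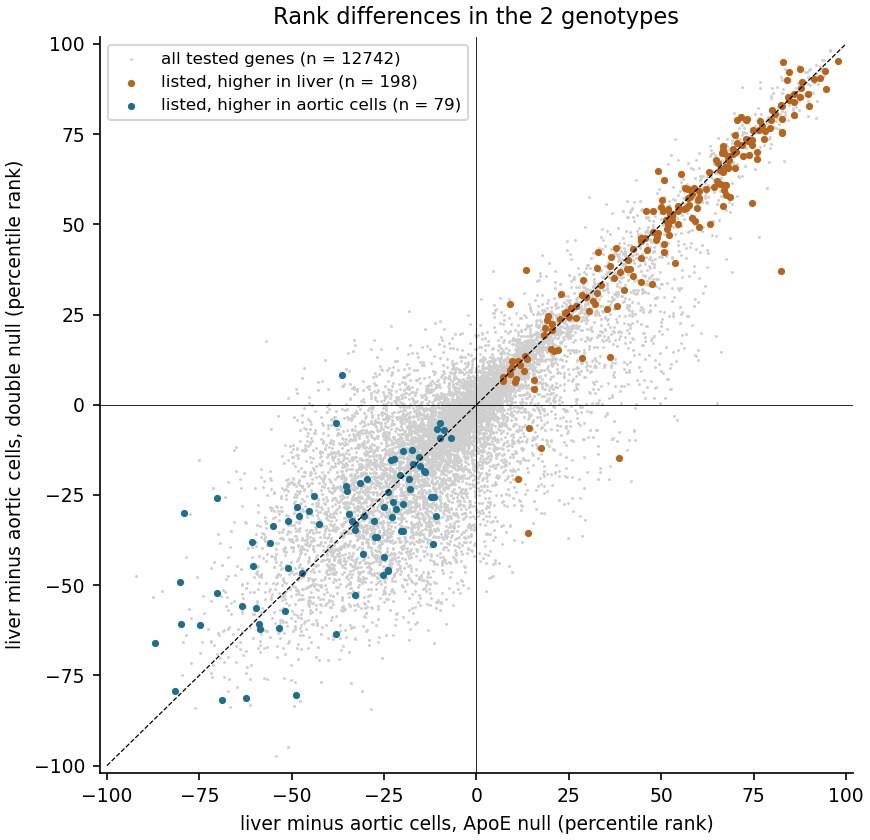
Difference in percentile rank between liver and aortic cells in ApoE null mice (x axis) and double null mice (y axis) for 12742 tested genes (grey) and the listed genes that passed in ApoE null mice (brown, 198 higher in liver, and blue, 79 higher in aortic cells). Brown points lie along the dashed line of equal difference with 5 below 0, and blue points lie below 0 with 1 exception.

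The interaction of tissue and genotype passed for 76 genes (0.596%), and 1123 had an unadjusted p under 0.05. The 5 with the lowest p were Slc31a2, Hnf4g, Slc1a7, Trim68 and Ccdc166. Hnf4g, a relative of Hnf4a, ranked 69.7 and 66.4 in ApoE null livers, 1.66 and 2.42 in double null livers and under 5 on the 4 aortic arrays. Slc31a2, a copper transporter relative, ranked 28.4 and 27.3 in ApoE null livers and 78.6 and 80.4 in double null livers, with all aortic arrays over 81. In both the aortic arrays lay close across the genotypes and the livers lay apart. The number of calls depended on the setting, since leaving out 1 liver gave 436 to 1029, normal scores left 3 and a fit with trend and robust variance 1, and the fits with no filter, without any 1 aortic array or with a replicate block left none (640 to 1535 genes at an unadjusted p under 0.05).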

How the data were processed

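RNA was measured on Affymetrix whole-genome mouse arrays, from 100 ng of total RNA made into biotinylated cRNA. The authors deposited liver arrays as linear MAS5 signal intensity, scaled to an average of 100 per array. Aortic arrays were deposited by the authors as log2 values, with a normalization that no source used here gives. Each array was turned into percentile ranks over 45037 probe sets, after 64 controls were left out. Of these, 34945 name 1 gene, 932 several and 9160 none, and 34741 were matched to current symbols by Entrez number. Probe sets ranked over 50 on at least 2 of the 4 ApoE null arrays (25597) were tested with limma 3.58.1 in R 4.3.3 (lmFit and eBayes, 2 residual degrees of freedom, Benjamini-Hochberg over all of them). A gene was read from its probe set with the highest mean rank over the 4 arrays, which gave 12742 genes. Only the 4 arrays compared entered the fit, double null arrays had a fit of their own, and the interaction used all 8. The code was tested on simulated data. The number of arrays limits the precision.

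The 43 gene lists (606 genes) and the genes to name were chosen with earlier results of these data known. Named genes were Apoe, Rcan1 and genes the study ties to these arrays, the 10 widest gaps in each direction, of each list up to 6 that passed and up to 3 that did not, all isozymes, up to 6 brightest markers per cell type, the 8 genes highest in both tissues and the 5 lowest interaction p-values. Named after their values were seen were Ace, Ahsg, Ambp, Apoa2, Bub1b, Ccne1, Cfi, Cnn1, Col6a3, Dll4, Ephb4, Ephx1, F2, Foxf1, Hc, Hnf4a, Lsr, Myh11, Nr2f2, Nr5a2, Plg, Ptprb and Tfpi. Ranks were tried as normal scores, without the filter, with trend and robust variance, over probe sets of 1 gene only, as the median of a gene's probe sets, as quantile-normalized log2 values (liver signal plus 16), with all 12 arrays, without each array in turn and with a replicate block.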

Additional observations from a re-analysis of the deposited data

Results flagged for a closer look

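The interaction of tissue and genotype passed in the main limma fit for 7 of the genes named here. In that fit their gap between liver and aortic cells differed between ApoE null and double null mice. Over all genes few calls were left by other settings, 3 with normal scores, 1 with trend and robust variance and 0 without the filter. The value given is the difference of the gaps in percentile points, ApoE null minus double null, with n = 2 arrays in each of the 4 groups, and the cause was not tested. Hnf4g gave 64.63 ± 2.61 (SE, adjusted p = 0.0109 by limma). Slc1a7, a glutamate transporter, gave 56.13, with ApoE null livers at 62.5 and 62.2, double null livers at 9.21 and 6.01 and all aortic arrays between 52.0 and 56.0. Myocd gave 53.34, with ApoE null livers at 60.8 and 66.0 and double null livers at 11.4 and 11.3. Slc31a2 gave −50.41 (adjusted p = 0.0109 by limma). Trim68, a member of the E3 ligase family, gave 46.49, with double null livers at 15.5 and 11.7 against 61.3 in both ApoE null livers. Ccdc166 gave 31.13, with double null livers at 37.4 and 38.8 against 69.4 and 69.1. Adh1 gave −23.12, and here the livers were alike (99.85 to 99.91) and the aortic cells differed, with ApoE null arrays at 93.8 and 93.1 and double null arrays at 72.0 and 68.7.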

How the results depend on the processing

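Under every setting with a test, all 3724 calls of the ApoE null comparison that could be measured kept their direction, while their number moved. The differences came from the same 4 arrays each time, so a kept direction was close to fixed in advance. With no filter 2431 of the 3724 were called again, and with all 12 arrays 2693. Without ApoE null liver replicate 1 or 2 and without either aortic array, genes higher in liver ranged from 0 to 4149 and genes higher in aortic cells from 0 to 5752. In double null mice the ranges were 0 to 2412 and 0 to 4255, and for the interaction 0 to 1029. In each case the 0 came from leaving out an aortic array. Trend and robust variance gave 2405 genes higher in aortic cells for ApoE null arrays and 2771 for double null arrays, and quantile-normalized log2 values gave 2880 and 3101. The interaction gave 3 genes with normal scores, 1 with trend and robust variance and 0 without the filter. Same-numbered arrays did not deviate together (a correlation of −0.0215 for ApoE null arrays and −0.00223 for double null arrays). With 2 arrays a group this cannot tell whether same-numbered samples were paired. A replicate block leaves fewer residual degrees of freedom. With it, 0 genes passed in each direction of either genotype and 0 for the interaction (3949, 3941 and 1220 at an unadjusted p under 0.05). Other settings left these counts over all genes within 1.5 times, but counts within single lists moved more, such as fatty acid oxidation from 13 to 6 genes without the filter. As the median of its probe sets, Itga5 turned to −17.9 points and Msr1 to −8.03. Among genes that did not pass, leaving out ApoE null liver replicate 1 or 2 gave 3.59 and −8.57 points for Pdgfrb, 13.3 and −2.19 for Lum and −8.63 and 0.258 for Rcan1. With 2 arrays a group the number of arrays limits what can be called, and tissue, array run, algorithm, extraction, diet and culture cannot be told apart.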
